A study of Mus musculus with 6 samples.

Results

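The effectors of pyroptosis and necroptosis described here are 8 genes, Casp4, Gsdmd, Mlkl, Ripk1, Ripk3, Casp1, Zbp1 and Pycard, followed in TC-1/A9 tumour cells upon IFNγ treatment. A probe was counted as a member when the platform annotation of the authors' normalised value table gave it one of these symbols. By this rule 4 of the 8 genes had a probe, 7 probes in all among the 12421 of that table and the 45281 on the array: 2 for Casp4, 3 for Gsdmd, 1 for Mlkl and 1 for Zbp1. Ripk1, Ripk3, Casp1 and Pycard had no probe named here and were not analysed, which says nothing about their expression, since 2365 of the 13545 tested probes carried no name.

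TC-1/A9 is an MHC class I-deficient mouse line derived from a tumour that TC-1 cells had formed in an immunized animal, and TC-1 are C57BL/6 lung cells transformed with the E6 and E7 oncogenes of HPV16 and activated Ha-ras, so both groups carry these transgenes and stem from 1 line. RNA was collected from cells grown with IFNγ and from untreated cells, and was read on Illumina Mouse WG6 bead chips, 3 IFNγ arrays against 3 untreated arrays. The sample labels give 50 U/ml of IFNγ for 24 h, and the study's methods give a higher dose for the arrays and call the replicates biological triplicates. In RNA of whole cultures, more expressing cells and more transcript per cell cannot be told apart.

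Pyroptosis is a lytic, inflammatory cell death. Inflammasome sensors engage the adaptor ASC (encoded by Pycard) and caspase-1, whereas mouse caspase-11 (encoded by Casp4) binds cytosolic lipopolysaccharide directly. Both caspases cut gasdermin D (Gsdmd), whose N-terminal part opens pores in the plasma membrane. Necroptosis is a lytic death that runs without caspases: the kinases RIPK1 and RIPK3, or the Z-nucleic acid sensor ZBP1 with RIPK3, lead to phosphorylation of the pseudokinase MLKL, which then breaks the plasma membrane. Several of these genes are known interferon-stimulated genes.

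The response to the cytokine was present on every IFNγ array. The mean log2 signal of Irf1, an interferon-induced transcription factor, was 12.75 ± 0.22 on IFNγ arrays and 9.95 ± 0.13 on untreated arrays (SD, n = 3 each), and that of Gbp2, an interferon-induced GTPase, was 13.74 ± 0.31 on IFNγ arrays and 7.02 ± 0.14 on untreated arrays. Igtp, another interferon-induced GTPase, was detected on no untreated array and was at least 53.5-fold higher on IFNγ arrays, a bound set by the lowest detected signal of each untreated array. Between 11504 and 12423 probes per array were detected (detection p of 0.01 or less against the negative controls of the array), and log2 signals correlated between arrays at 0.986 to 0.995 across probes. Vim, a mesenchymal marker, was bright in both groups (13.28 on IFNγ arrays, 13.20 on untreated arrays), while none of 9 epithelial, 7 lung epithelial and 4 B cell markers had a probe named here. Of 11 macrophage markers 3 were measured, with a summed intensity of 386 to 464 on IFNγ arrays and 400 to 428 on untreated arrays. Of 11 T and NK cell markers 2 were measured (952 to 1535 on IFNγ arrays, 975 to 1082 on untreated arrays), and no marker of these lists passed the test. Most of each sum came from 1 probe. On IFNγ arrays the mean log2 signal was 8.13 for Cd14, against 6.23 for Cd68 and 6.05 for Csf1r among the macrophage markers. Cd8b1 had 10.03 there, against 6.72 for Prf1, among the T and NK cell markers. Ptprc, Adgre1 and Cd3e, defining markers of such cells, had no probe named here, and the part of other cells in the results below was not tested.

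Upon IFNγ treatment, probes of Casp4, Gsdmd and Mlkl were higher by 1.71- to 1.93-fold, whereas the second Casp4 probe, the brightest Gsdmd probe and the Zbp1 probe did not pass the test. In numbers, 4 of the 7 member probes were higher at a false discovery rate below 0.01 (limma, Benjamini-Hochberg over 13545 probes), where 1.04% of all tested probes were higher and 0.0148% lower, and 0 member probes were lower. Counted as genes, with 1 called probe sufficient and none opposed, 3 of the 4 measured members were higher and 0 lower, against 1.33% of 7807 named genes higher and 0.0256% lower. The members were chosen with earlier results of these data known, and the study itself lists Casp4 and Mlkl as upregulated by IFNγ. These shares therefore describe the members and are no test of enrichment. The IFNγ arrays all lay above the untreated arrays at 5 of the 7 member probes (6.32% of all tested probes) and all below at 0 (6.88% of all tested probes). The median log2 fold change of the 7 probes was 0.77, and that of all tested probes was -0.01.

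**Figure D1:**
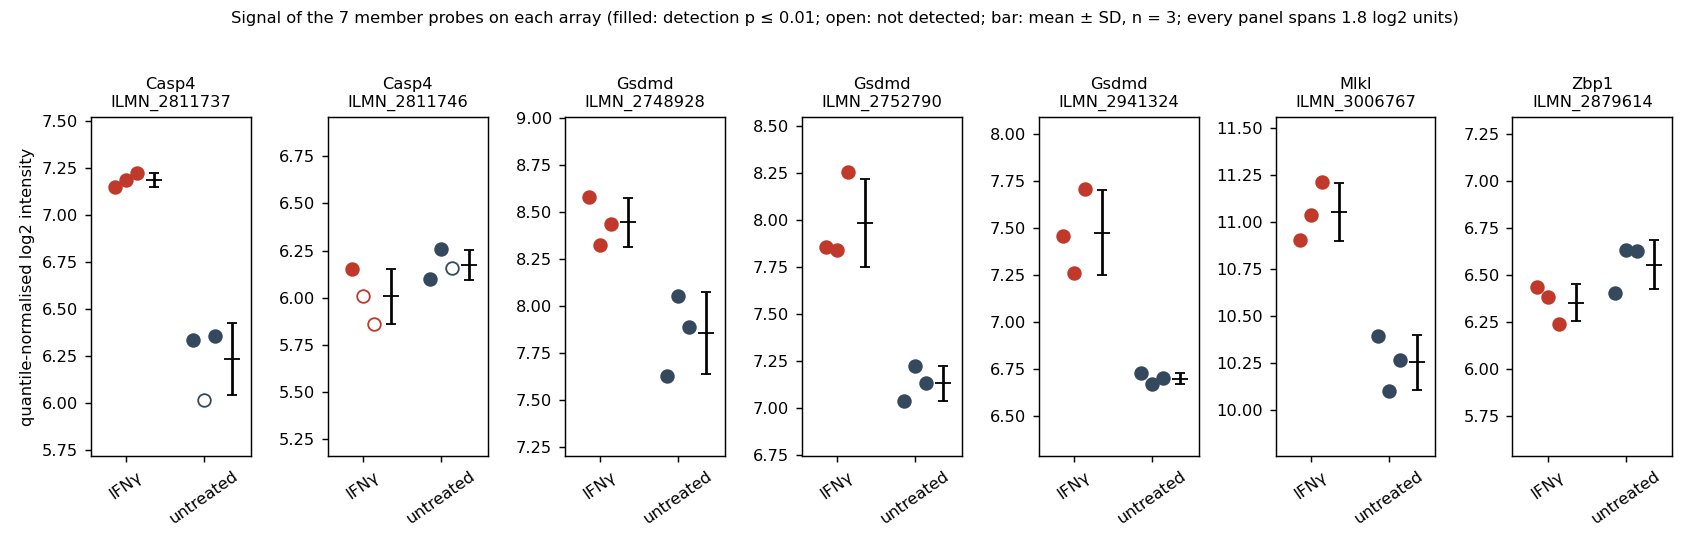
Quantile-normalised log2 intensity (y axis) of the 7 member probes on each array, IFNγ at left and untreated at right of each panel; filled points were detected, open points were not, and bars give the mean ± SD of 3 arrays. IFNγ arrays lie above all untreated arrays for 1 Casp4 probe, the 3 Gsdmd probes and Mlkl, and the groups overlap for the other Casp4 probe and Zbp1.

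Casp4, the caspase of the non-canonical inflammasome, was read by 2 probes, 1 of which lay close to the background in both groups. Probe ILMN_2811737 had deposited intensities of 157, 126 and 143 on IFNγ arrays 1, 2 and 3, against 95.9, 64.9 and 74.4 on untreated arrays 1, 2 and 3. After quantile normalisation its log2 signal was 7.15, 7.18 and 7.22 on the IFNγ arrays, against 6.34, 6.02 and 6.36 on the untreated arrays. The groups did not overlap on either scale, and the IFNγ arrays lay closer together (SD 0.04) than the untreated ones (SD 0.19). The log2 fold change was 0.95 (SE 0.12, 95% interval 0.70 to 1.20, adjusted p = 0.000303, limma), which is 1.93-fold. This probe was near the background of untreated cells: it was detected on 3 of 3 IFNγ arrays and on 2 of 3 untreated arrays, with a detection p of 0.0267 on untreated array 2. Its call was kept in all 16 alternative settings that could test it, with log2 fold changes of 0.84 to 1.44 and adjusted p of 9.37e-08 to 0.00407. The highest of these came from background correction with neqc, which moved the value by over 1.5 times.

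Probe ILMN_2811746, annotated to the same gene, had deposited intensities of 74.7, 60.0 and 56.8 on IFNγ arrays 1, 2 and 3, against 78.4, 76.0 and 65.9 on untreated arrays 1, 2 and 3. Its log2 signal was 6.15, 6.01 and 5.86 on the IFNγ arrays, against 6.10, 6.26 and 6.16 on the untreated arrays, so the groups overlapped. It was detected on 1 of 3 IFNγ arrays and 2 of 3 untreated arrays, and all 6 signals lay close to the lowest detected signal of an array (6.07 to 6.18 in log2). This gave a log2 fold change of -0.16 (SE 0.11, 95% interval -0.41 to 0.08, adjusted p = 0.746, limma). With both probes averaged, Casp4 had a log2 fold change of 0.39 (SE 0.09, adjusted p = 0.0801) and did not pass the test.

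Because the second Casp4 probe lay close to the background, its lack of a call gives no size for its response. The signal of the first minus that of the second was 0.99, 1.17 and 1.36 on IFNγ arrays 1, 2 and 3, against 0.24, -0.24 and 0.20 on untreated arrays 1, 2 and 3, with no overlap. The exact two-sided permutation test gave p = 0.1, the smallest that 3 arrays against 3 allow (adjusted p = 0.4 over the 4 probe pairs compared). The files used here do not give the probe sequences, so the transcript regions read by the 2 probes were not compared.

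Gsdmd, the pore-forming substrate of both inflammatory caspases, had 3 probes, all detected on all 6 arrays and all with IFNγ arrays above every untreated array. The brightest, ILMN_2748928, had deposited intensities of 440, 269 and 315 on IFNγ arrays 1, 2 and 3, against 258, 258 and 203 on untreated arrays 1, 2 and 3. Its log2 signals of 8.58, 8.32 and 8.43 on IFNγ arrays stood against 7.63, 8.05 and 7.89 on untreated arrays. Nearest to each other across the groups were IFNγ array 2 and untreated array 2. The log2 fold change of 0.59 (SE 0.13, 95% interval 0.31 to 0.86, adjusted p = 0.0353, limma) missed the threshold of 0.01.

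The other Gsdmd probes passed it. Probe ILMN_2752790 had deposited intensities of 265, 195 and 280 on IFNγ arrays 1, 2 and 3, against 166, 144 and 123 on untreated arrays 1, 2 and 3, and log2 signals of 7.86, 7.84 and 8.26 on IFNγ arrays against 7.04, 7.22 and 7.13 on untreated arrays. IFNγ array 3 stood above the other two. It changed by 0.85 in log2 (SE 0.13, 95% interval 0.58 to 1.13, adjusted p = 0.00176, limma), or 1.81-fold. Probe ILMN_2941324 had deposited intensities of 198, 132 and 196 on IFNγ arrays 1, 2 and 3, against 131, 99.3 and 92.7 on untreated arrays 1, 2 and 3, and log2 signals of 7.46, 7.26 and 7.71 on IFNγ arrays against 6.73, 6.67 and 6.70 on untreated arrays. The untreated arrays were nearly level here (SD 0.03), and the IFNγ arrays were spread (SD 0.22). The log2 fold change was 0.77 (SE 0.12, 95% interval 0.51 to 1.04, adjusted p = 0.00272, limma), or 1.71-fold.

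The 3 Gsdmd probes differed from each other in response by 0.08 to 0.26 in log2. The brightest probe responded by 0.26 less than ILMN_2752790 (95% interval of the difference -0.74 to 0.22, exact permutation p = 0.2) and by 0.19 less than ILMN_2941324 (-0.71 to 0.33, exact permutation p = 0.4). Without IFNγ array 3 these differences were -0.12 and -0.06, and without untreated array 2 the second was -0.07. The 2 called probes differed by 0.08 (-0.17 to 0.33, exact permutation p = 0.6). Averaged over its 3 probes, Gsdmd had a log2 fold change of 0.74 (SE 0.11, adjusted p = 0.00227, limma). Some calls were lost in fits with 1 array fewer (limma). ILMN_2752790 was not called without untreated array 1 (adjusted p = 0.0313) or untreated array 3 (0.0223). ILMN_2941324 was not called without IFNγ array 1 (0.0167) or without untreated array 1, 2 or 3 (0.0306, 0.027 and 0.0307). Without untreated array 3 their log2 fold changes were still 0.85 and 0.78, and 83 probes were called higher over the whole array, against 141. Over all alternatives the log2 fold change stayed between 0.72 and 1.04 for the first and between 0.66 and 1.04 for the second, and the brightest probe ranged over 0.47 to 0.69.

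**Figure D2:**
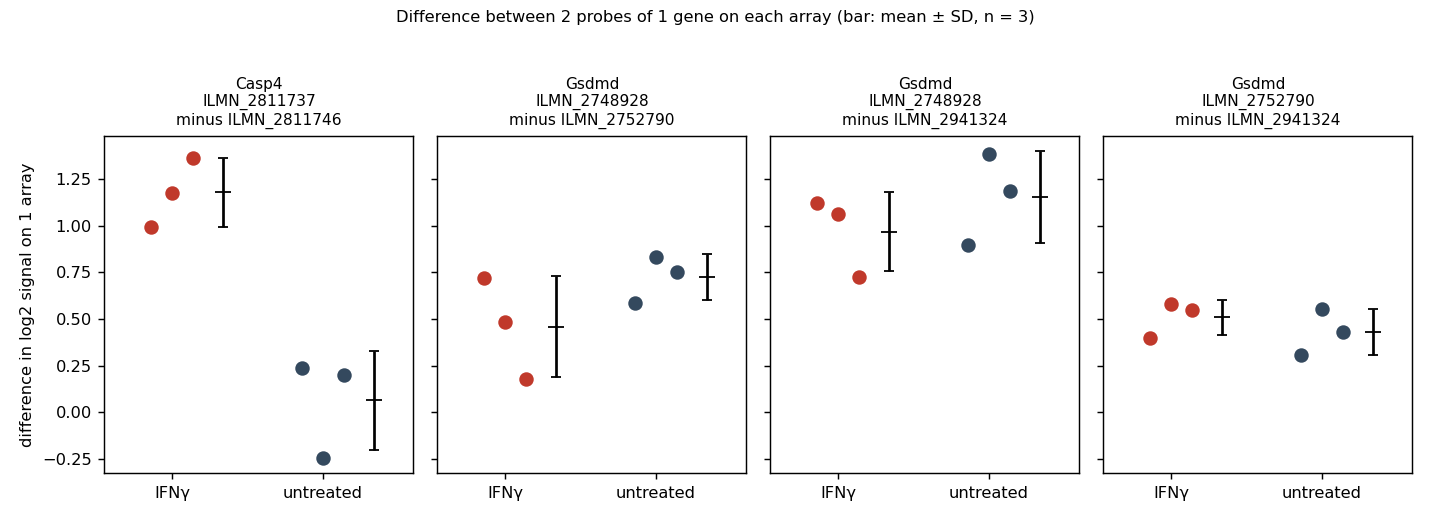
Difference in log2 signal between 2 probes of 1 gene on each array (y axis), IFNγ at left and untreated at right of each panel, with mean ± SD of 3 arrays. For the Casp4 pair the IFNγ arrays (0.99 to 1.36) lie above the untreated arrays (-0.24 to 0.24), and for the 3 Gsdmd pairs the groups overlap.

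Mlkl, the executioner of necroptosis, was read by 1 probe, which was detected on all 6 arrays. Probe ILMN_3006767 had deposited intensities of 2261, 1805 and 2001 on IFNγ arrays 1, 2 and 3, against 1870, 1093 and 1041 on untreated arrays 1, 2 and 3. Before normalisation the groups overlapped, since untreated array 1, the array with the highest median intensity (55.4, against 48.7 to 52.0 on the other 5), exceeded IFNγ array 2. After normalisation the log2 signals were 10.90, 11.04 and 11.21 on IFNγ arrays and 10.39, 10.10 and 10.27 on untreated arrays, with no overlap. Mlkl thus changed by 0.80 in log2 (SE 0.12, 95% interval 0.54 to 1.06, adjusted p = 0.00183, limma), or 1.74-fold. The call was lost without untreated array 2 (adjusted p = 0.0219) or untreated array 3 (0.0223), and the log2 fold change stayed within 0.70 to 0.87 over all alternatives.

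Zbp1, the sensor that joins Z-form nucleic acids to RIPK3, was detected on all 6 arrays with signals close to the lowest that were detected. Probe ILMN_2879614 had deposited intensities of 92.6, 74.96 and 73.9 on IFNγ arrays 1, 2 and 3, against 101, 97.1 and 87.9 on untreated arrays 1, 2 and 3. Its log2 signals of 6.43, 6.38 and 6.24 on IFNγ arrays overlapped with 6.41, 6.63 and 6.63 on untreated arrays. Zbp1 had a log2 fold change of -0.20 (SE 0.11, 95% interval -0.45 to 0.04, adjusted p = 0.69, limma). In 17 alternative settings the probe was never called, with log2 fold changes of -0.33 to -0.15.

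The count of called member probes moved with the scaling of the arrays. When each array was centred on its 75th percentile in place of quantile normalisation, 1 of the 7 probes (Casp4 ILMN_2811737) was called, and the number of probes called higher over the whole array fell to 78 under this centring, against 141 with quantile normalisation. There the log2 fold changes were 0.82 and 0.75 for the 2 called Gsdmd probes (adjusted p = 0.0128 and 0.0333) and 0.70 for Mlkl (adjusted p = 0.0776, limma). Without untreated array 3, Casp4 ILMN_2811737 was again the 1 member probe called, while 83 probes were called higher over the whole array. Without untreated array 1 or 2, 2 member probes were called, while 92 or 98 probes were called higher over the whole array.

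**Figure D3:**
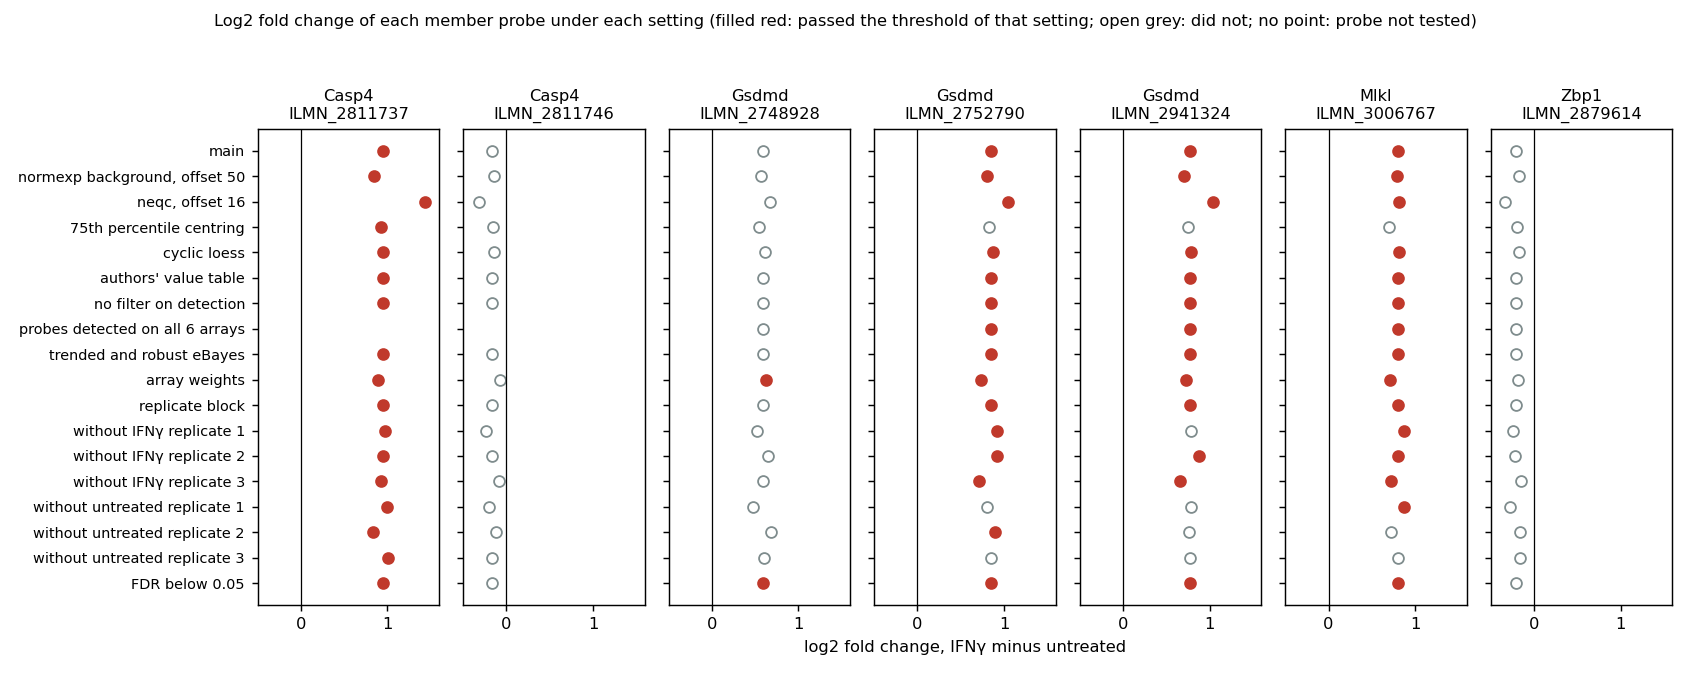
Log2 fold change, IFNγ minus untreated (x axis), of each member probe under the main setting and 17 alternatives (rows); filled red points passed the threshold of that setting, open grey points did not, and an empty row means that the probe was not tested. Casp4 ILMN_2811737 is filled in every setting that tested it, and no point of the 3 Gsdmd probes or Mlkl lies below 0.47.

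The promoters of the called genes are shown because interferon-regulated genes often carry IRF elements or gamma-activated sites near their start. The promoter table used here, made from RefSeq (build GRCm38.p6), holds 300-base windows around an annotated start, and 6 of the 8 members matched an entry (all but Gsdmd and Zbp1). Each window was searched on both strands for the IRF element AANNGAAA (in 21.8% of 21263 mouse windows), for the core of the interferon-stimulated response element, which is GAAA, any 2 bases and GAAA again (3.35%) and always contains an IRF element match, and for the gamma-activated site TTCNNNGAA (7.69%). The first Casp4 window (chr9:5308599-5308898, plus strand) held 2 IRF element matches, on its reverse strand at bases 65 to 72 and 253 to 260, set in capitals below, and 0 matches of the other motifs. A second, overlapping Casp4 window held the same 2. The Mlkl window (chr8:111338156-111338455, minus strand) held 0 matches of the 3 motifs.
Casp4: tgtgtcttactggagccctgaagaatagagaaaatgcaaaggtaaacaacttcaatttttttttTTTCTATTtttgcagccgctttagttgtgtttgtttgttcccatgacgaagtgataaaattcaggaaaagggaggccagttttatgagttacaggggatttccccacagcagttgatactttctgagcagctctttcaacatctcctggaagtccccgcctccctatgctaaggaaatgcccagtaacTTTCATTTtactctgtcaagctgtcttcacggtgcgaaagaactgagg
Mlkl: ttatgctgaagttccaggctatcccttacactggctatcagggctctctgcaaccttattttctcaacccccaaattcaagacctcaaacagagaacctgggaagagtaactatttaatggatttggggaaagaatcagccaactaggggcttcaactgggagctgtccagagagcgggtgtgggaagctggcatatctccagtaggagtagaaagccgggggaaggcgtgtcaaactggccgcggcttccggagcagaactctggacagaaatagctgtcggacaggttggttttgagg

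Among the members without a probe named here, 1 of 2 Ripk1 windows held 1 response element core at bases 246 to 255 and 2 gamma-activated sites at bases 143 to 151 and 240 to 248, the second of which overlaps the core. The Pycard window held 1 IRF element match at bases 91 to 98, and the Ripk3 and Casp1 windows held 0 matches of the 3 motifs. A match of these letters is a description of the window and not a binding site.

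The other genes of both pathways were followed in 7 lists of 90 genes, 45 of which had a tested probe. Of these, 2 were higher (Fas and Adar), 0 were lower and 43 did not pass the test, where 1.33% of all named genes were higher. At an unadjusted p below 0.05 were 7 of the 45, against 8.49% of all 7807 named genes. Their median log2 fold change was 0.07, against -0.02 for all 7807 named genes and 0.69 for the 4 measured members. Each gene is given by its brightest tested probe, averaged over all 6 arrays.

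**Figure D4:**
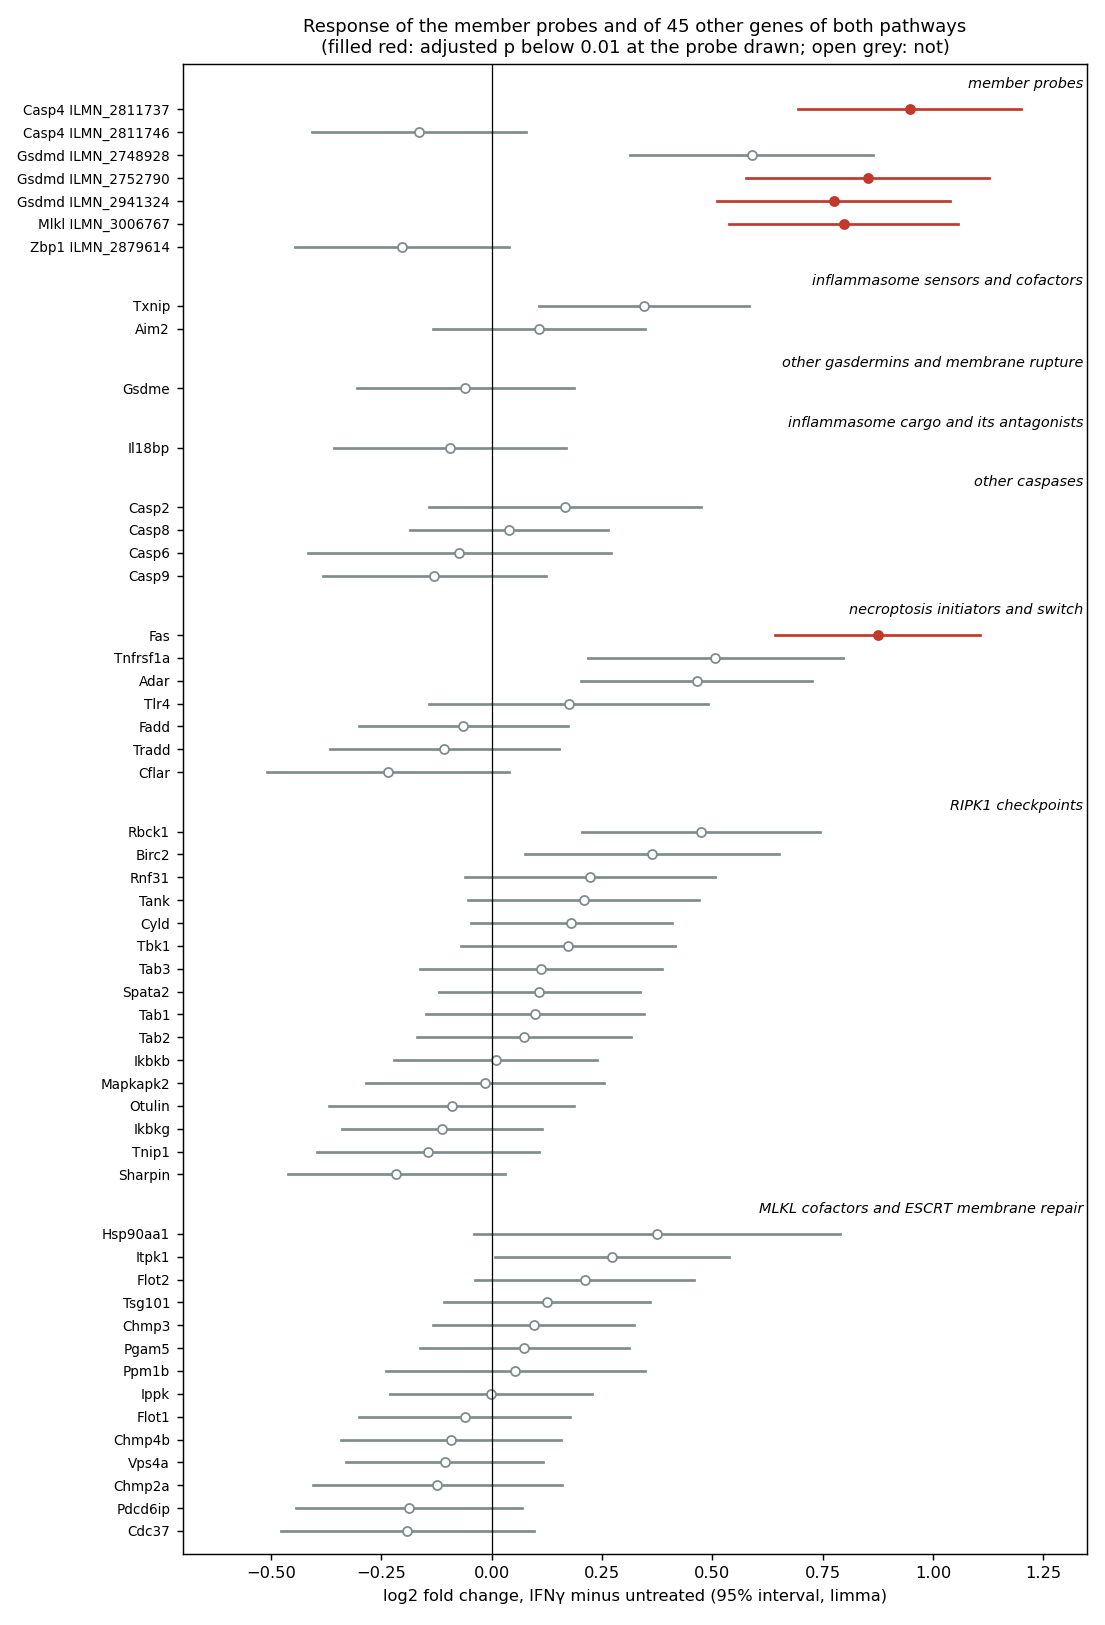
Log2 fold change, IFNγ minus untreated, with its 95% interval (x axis) for the 7 member probes and for 45 other genes of both pathways (rows, grouped by role; Casp8, in 2 lists, is drawn once); filled red points had an adjusted p below 0.01 at the probe drawn. Outside the members Fas is the 1 gene filled, and Adar is open because its called probe is not its brightest.

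Upstream of gasdermin D, 2 of 14 inflammasome sensors and cofactors were measured and neither passed the test. Aim2, the cytosolic DNA sensor, was detected on 2 of 3 IFNγ arrays and on no untreated array, with log2 signals of 6.12, 6.15 and 5.89 on IFNγ arrays and 6.01, 5.95 and 5.88 on untreated arrays, which overlapped at the background. Txnip, a thioredoxin-binding protein that can bind the sensor NLRP3, had 10.37, 10.36 and 10.44 on IFNγ arrays and 9.89, 10.17 and 10.06 on untreated arrays. Its IFNγ arrays all lay above the untreated arrays, as at 6.32% of all tested probes. Its log2 fold change of 0.35 (SE 0.11, adjusted p = 0.294, limma) missed the threshold, and its other probe overlapped between groups.

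Of 10 other gasdermin and membrane rupture genes, 1 was measured. Gsdme, the gasdermin that caspase-3 cuts, overlapped between groups (mean log2 signal 6.93 ± 0.14 on IFNγ arrays, 6.99 ± 0.10 on untreated arrays, SD, n = 3 each), with a log2 fold change of -0.06 (adjusted p = 0.914, limma). Of 6 inflammasome cargo genes and antagonists, 1 was measured: Il18bp, the soluble decoy that binds interleukin-18, had a log2 fold change of -0.09 (adjusted p = 0.87). Among 4 of 8 other caspases, the extremes were Casp2 at 0.17 and Casp9 at -0.13, neither of which passed (adjusted p = 0.785 and 0.799). Casp8, which cuts RIPK1 and thereby restrains necroptosis, had 8.15, 8.22 and 8.32 on IFNγ arrays and 8.21, 8.14 and 8.22 on untreated arrays, overlapping, with a log2 fold change of 0.04 (95% interval -0.18 to 0.26).

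On the necroptosis side, 8 of 11 initiators and switch genes were measured, and 2 were higher. Fas, the death receptor engaged by FasL on killer cells, had log2 signals of 7.01, 7.04 and 6.88 on IFNγ arrays, against 6.16, 6.15 and 5.99 on untreated arrays. The groups lay apart, with 3 of 3 IFNγ arrays and 1 of 3 untreated arrays detected. Its log2 fold change was 0.87 (SE 0.11, adjusted p = 3e-04, limma), the call held in 17 alternatives that could test it, and neqc gave the highest value, 1.40.

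Adar encodes the editing enzyme whose interferon-induced form binds Z-RNA and keeps ZBP1 from it. It was called by 1 of its 4 probes: ILMN_3093622 had 6.65, 6.63 and 6.70 on IFNγ arrays, against 5.95, 5.93 and 5.92 on untreated arrays, where it was not detected. It was at least 1.43-fold higher on IFNγ arrays, with an adjusted p of 0.000885 (limma). Its brightest probe had 7.09, 6.82 and 7.24 on IFNγ arrays and 6.64, 6.51 and 6.61 on untreated arrays, also without overlap. Such separation, with IFNγ arrays above, held at 6.32% of all tested probes. The log2 fold change of the brightest probe was 0.46 (SE 0.12, adjusted p = 0.118, limma). Averaged over its 4 probes, Adar had 0.47 (adjusted p = 0.0374, limma) and did not pass the test. The call of Adar thus rested on 1 probe that was detected on IFNγ arrays only.

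Tnfrsf1a, the receptor TNFR1 through which TNF starts necroptosis, had 3 probes with log2 fold changes of 0.48 to 0.52. None was called (lowest adjusted p 0.0294, limma). The IFNγ arrays lay above all untreated arrays at each of them, as at 6.32% of all tested probes, while 6.88% lay wholly below. Cflar, which encodes the caspase-8 partner cFLIP, had the lowest value of this list, -0.24 (adjusted p = 0.685), with log2 signals of 8.74, 8.86 and 8.39 on IFNγ arrays, all below the 8.87, 8.94 and 8.89 of untreated arrays. Without IFNγ array 3 its log2 fold change was -0.10. Fadd, the death receptor adaptor, overlapped between groups (log2 fold change -0.07, adjusted p = 0.902).

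Of 23 checkpoints on RIPK1, 16 were measured and 0 passed the test in either direction (2 at an unadjusted p below 0.05, where 8.49% of named genes lay, limma). The extremes belonged to 1 complex, the linear ubiquitin ligase that marks TNFR1 complexes. Rbck1, its subunit HOIL-1, was the highest, with 8.94, 8.94 and 8.88 on IFNγ arrays and 8.18, 8.61 and 8.55 on untreated arrays (log2 fold change 0.47, SE 0.12, adjusted p = 0.119). The IFNγ arrays of Rbck1 all lay above the untreated arrays, as at 6.32% of all tested probes. Sharpin, another subunit, was the lowest (log2 fold change -0.22, SE 0.11, adjusted p = 0.679), and its groups overlapped. Rnf31, also of this complex, had a log2 fold change of 0.22 (SE 0.13, adjusted p = 0.705), and its groups overlapped. None of these genes passed, so a difference in response within the complex was not shown.

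Of 19 cofactors of MLKL and genes of ESCRT membrane repair, 14 were measured and 0 passed the test in either direction (1 at an unadjusted p below 0.05, against the same 8.49%, limma). Hsp90aa1 and Cdc37, a chaperone and its kinase-specific partner that act on RIPK3 and MLKL, were the highest and the lowest, with log2 fold changes of 0.37 (SE 0.19, adjusted p = 0.669) and -0.19 (SE 0.13, adjusted p = 0.753). The value of Hsp90aa1 came largely from IFNγ array 3, with 7.38, 7.45 and 8.29 on IFNγ arrays, against 7.49, 7.26 and 7.24 on untreated arrays. Without that array the log2 fold changes were 0.08 for Hsp90aa1 and -0.04 for Cdc37. Itpk1, a kinase of the inositol phosphates that MLKL needs, had a log2 fold change of 0.27 (adjusted p = 0.62).

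The 3 genes whose mean-centred signal over the 6 arrays lay nearest to that of each called member probe were taken by Euclidean distance in log2 units. For Casp4 ILMN_2811737 they were Samhd1 (distance 0.11), Pdzrn3 (0.22) and Crem (0.28). For Gsdmd they were Trim25 (0.10), Znfx1 (0.16) and Hap1 (0.17) at ILMN_2752790, and Amigo2 (0.15), Denn2b (0.15) and Trim25 (0.16) at ILMN_2941324. For Mlkl they were Bid (0.09), Crem (0.20) and Denn2b (0.23). All had log2 fold changes of 0.72 to 0.98, a range that holds the 0.77 to 0.95 of the called member probes. Because the genes were picked by nearness over these same arrays, this likeness follows from the choice.

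In the gene order of the same RefSeq build, Casp1 and Casp4 are next to each other among protein-coding genes. The nearest named and tested protein-coding genes on either side of each measured member, 4 for each, had log2 fold changes from -0.16 (Dcun1d5, near Casp4) to 0.18 (Glg1, near Mlkl), and none of these 16 genes passed the test.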

How the data were processed

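RNA of IFNγ-treated and untreated TC-1/A9 cells was measured on Illumina Mouse WG6 arrays, 3 per group. With BeadStudio the authors obtained an average bead intensity for each probe and array, deposited without normalisation between arrays, and a detection p-value against negative controls, also deposited. Whether BeadStudio had subtracted background was not given by the sources read. Also deposited by the authors were log2 values made with lumi and limma per the methods. These differed by at most 4.97e-14 from the quantile-normalised log2 intensities over all 45281 probes, each column having a median of 7.56, so scale and centring are known and the table holds no ratio.

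Here log2 intensities were quantile normalised over all probes and probes whose detection p exceeded 0.01 on every array were dropped, as in the study's methods. The 13545 probes left were tested with limma 3.58.1 in R 4.3.3 (lmFit, eBayes), IFNγ minus untreated, Benjamini-Hochberg over all of them, FDR below 0.01. The fit was tested on simulated data. A probe detected on no untreated array has only a bound. Responses of probes of 1 gene were compared by exact two-sided permutation tests over arrays. Files of arrays hold no depth, and the number of arrays limits the precision.

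Probe symbols were those of the platform annotation (value table only: 11180 probes with 1 symbol, 0 with several, 1241 unlisted), 664 of them updated through RefSeq. Named were all members, of each pathway list the called genes and those with the highest and lowest change, and for each called member probe the 3 nearest genes. Casp8, Fadd, Tnfrsf1a, Rnf31, Itpk1, Vim and the genes adjoining the members were named after their values had been seen. The members and lists were chosen with earlier results of these data known. Alternatives were other background corrections (normexp with offset 50, neqc with offset 16), normalisations, filters, array weights, a replicate block, an FDR below 0.05, leaving out each array and averaging probes.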

Additional observations from a re-analysis of the deposited data

How the results depend on the processing

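No member probe was called lower and no direction of a member probe turned under any alternative. The 4 member probes called higher and the 2 other pathway genes called higher were the same under normexp, neqc, cyclic loess, the authors' value table, no filter on detection and a trended and robust eBayes. In these settings between 0.3% (no filter on detection) and 1.07% of all tested probes were higher. With centring on the 75th percentile, 1 member probe and 1 pathway gene were called, where 0.576% of all tested probes were higher. Requiring detection on all 6 arrays left 5 member probes, 3 of them called, and 0 of 40 pathway genes, since Fas and the called Adar probe were not detected on all of them. Under this filter 74 probes (0.693%) were higher over the whole array. Array weights gave 5 member probes and 4 pathway genes, with Gsdmd ILMN_2748928 (adjusted p = 7.24e-05), Rbck1 (0.00612) and Tnfrsf1a added, and moved the share of higher calls over all probes to 87.6%, against 98.6% with equal weights. With these weights 1.83% of all tested probes were higher. At an FDR below 0.05, 5 member probes and 3 pathway genes were called, where 178 of all tested probes (1.31%) were higher and 7 lower. Averaging the probes of a gene left 1 pathway gene. Of the members it left Gsdmd (adjusted p = 0.00227) and Mlkl (0.00184) called, but not Casp4 (0.0801, limma). The call of Casp4 as a gene therefore depends on the rule that 1 called probe suffices. The share of all named genes called under averaging was not computed. Leaving out 1 array in turn gave 1 to 4 member probes and 1 to 3 pathway genes, in fits that hold 1 array fewer. In these fits 83 to 172 probes were higher over the whole array. With 1 array left out, the log2 fold change of Gsdme ranged over -0.1274 (without IFNγ array 3) to 0.0149 (without IFNγ array 1), and that of Casp2 over -0.0098 (without IFNγ array 3) to 0.272 (without IFNγ array 2), so both changed sign without being called. Arrays with the same replicate number did not deviate together (correlations of -0.19, 0.04 and -0.03), and those with unlike numbers had correlations of -0.16 to 0.21. Whether arrays of the same number shared a culture or batch cannot be told from this. With the replicate number as a block, 4 member probes and 2 pathway genes were called, and 145 probes in all were higher. The 4 probe pair differences kept their signs under the alternatives run, but not their sizes: the Casp4 difference was 1.76 with neqc, against 1.11, and the Gsdmd differences ranged over -0.39 to -0.12, -0.36 to -0.06 and 0.01 to 0.14. Low signal limits both Casp4 probes, Zbp1, Aim2, Fas and Adar, whose untreated values lie at or near the lowest detected signal.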
